A study of Mus musculus with 6 samples.

Results

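The spliceosomal small nuclear RNAs (snRNAs) were described as 5 rows, named U1, U2, U4, U5 and U6, of the 1336 rows of repeat and structural RNA counted in each library. They were chosen by name and class alone, and all 5 had enough counts to be tested, among 1193 tested rows. The cells were mouse embryonic fibroblasts, connective-tissue cells grown from embryos, of the BALB/c strain, with embryos labelled as 10.5 days old. The wild-type group (WT) had 3 libraries, and the group labelled Beta actin KO, from cells that are Actb-/- and so lack both copies of the gene of β-actin, had 3. All 6 were made from total RNA with a TruSeq Ribo-Zero kit, which removes ribosomal RNA (rRNA). The series calls the 3 samples of a genotype biological replicates, and the labels do not give the embryo or culture behind each. No row is a protein-coding gene, so the fibroblast label could not be checked against markers and Actb RNA was not analysed here.

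The spliceosome cuts introns out of pre-mRNA and is built on these 5 RNAs, each packed with proteins into a particle. U1 pairs with the start of the intron, and U2 pairs with its branch point. U4 and U6 enter paired with each other together with U5, U4 then leaves, and U6 pairs with U2 to form the catalytic core, while U5 holds the exon ends. U1, U2, U4 and U5 are made by RNA polymerase II and carry a binding site for the ring of Sm proteins, whereas U6 is made by RNA polymerase III and carries the related LSm ring.

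The sequences of U1 and U2 are shown, from the GENCODE M21 annotation (mouse, GRCm38), because the results below turn on U2 and because these RNAs, which held the most counts of the 5, read different parts of the intron. The other members are given by name only. The sequences are written as DNA, 5′ to 3′, and capitals mark the stretch with which each RNA is known to contact its target: the bases of U1 that pair with the 5′ splice site and those of U2 that pair with the branch point.
U1 (Rnu1a1): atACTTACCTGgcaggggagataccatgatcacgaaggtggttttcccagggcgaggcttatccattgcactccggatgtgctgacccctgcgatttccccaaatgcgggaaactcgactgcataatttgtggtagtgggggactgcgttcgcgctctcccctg
U2 (Rnu2-10): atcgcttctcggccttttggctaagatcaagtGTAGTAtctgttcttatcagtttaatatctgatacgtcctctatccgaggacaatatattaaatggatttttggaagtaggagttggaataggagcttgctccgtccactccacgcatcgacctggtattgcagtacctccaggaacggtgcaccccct

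In GRCm38, Rnu1a1 lies at chr11:87422867-87423030 on the plus strand, inside an intron of Tex14 on the same strand. Rnu2-10 lies at chr11:101658238-101658428 on the plus strand, outside other annotated protein-coding and long noncoding genes. An Sm-like stretch, searched as ATTTNTNG on the strand of the RNA, occurs once in U1 (positions 126 to 133) and once in U2 (99 to 106). The same letters occur in 3.81% and 4.24% of mouse promoter windows cut to the lengths of U1 and U2. A match is a description of the letters and not a test of binding.

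Each of these rows can hold reads of many gene copies. Among 1383 GENCODE transcripts typed as snRNA, 35 matched Rnu1a1 at no less than 90% identity over no less than 90% of its length, and 14 matched Rnu2-10. Copies identical to the shown gene from end to end, the gene itself included, numbered 7 for Rnu1a1 and 4 for Rnu2-10. Of the 35 U1 copies, 11 lay in introns of other genes, 9 of them on the same strand as the host gene, and 3 overlapped exons of other genes. Of the 14 U2 copies, 4 lay in introns, each on the host's strand, and 0 overlapped exons. The U1b genes Rnu1b1 and Rnu1b2, known from embryonic mouse cells, aligned to Rnu1a1 with 95.8% identity. A row therefore cannot separate true genes from pseudogene copies, U1a from U1b, or a copy's own RNA from the RNA of a host gene. Their part in the results was not tested.

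The total per library ran from 7708630 to 17937809 counts in WT and from 9191049 to 19288620 in KO, of which rRNA filled 32.4% to 84.1% and 52.9% to 84.8%. The 5 rows together held 15942 to 44692 counts in WT and 8597 to 21686 in KO. Levels below are CPM of a TMM-scaled library size, named normalized CPM: TMM centres most repeat rows, so rRNA does not set the scale. The lowest count of any member was 110, for U5 in KO replicate 1, with an exact (Poisson) 95% interval of 90.4 to 133 that covers counting error only.

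U2, the branch point RNA, was lower in KO at 0.453 of its WT level, and it was the 1 member of 5 that passed the test. Its levels were 930, 1009 and 1106 normalized CPM in WT replicates 1 to 3 and 416, 401 and 562 in KO replicates 1 to 3. The highest KO library lay far below the lowest WT library. The log2 fold change was -1.14 with a standard error (SE) of 0.14 (adjusted p = 0.00429, by Benjamini-Hochberg, in the quasi-likelihood test of edgeR), the fifteenth lowest of all 1193 rows. In the same fit 3.6% of all rows were called lower and 5.78% were called in either direction. In bulk RNA, fewer cells with the RNA and less RNA per cell cannot be told apart.

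U1, which reads the 5′ splice site, stood at 648, 793 and 562 normalized CPM in WT and 475, 467 and 526 in KO. The groups did not overlap, but WT replicate 3 lay close to KO replicate 3. The log2 fold change was -0.45 with an SE of 0.12, short of the threshold (edgeR adjusted p = 0.0763). With DESeq2, which called 6.45% of all rows in either direction, U1 passed at the same size (-0.45, DESeq2 adjusted p = 0.000655).

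U4, the partner that holds U6 inactive, was at 220, 208 and 326 normalized CPM in WT and 111, 141 and 323 in KO. The replicate numbered 3 was the highest of its group in both genotypes, and KO replicate 3 reached the level of WT replicate 3. The KO libraries spanned 2.90-fold from lowest to highest, the widest range of the 5 members in either genotype. The log2 fold change was -0.39, SE 0.37 (edgeR adjusted p = 0.599). Without KO replicate 3 it was -0.99996 (edgeR adjusted p = 0.0582), without KO replicate 1 it was -0.12, without KO replicate 2 it was -0.21, and without WT replicate 3 it was -0.15.

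U5, which aligns the exon ends, was at 16.2, 17.3 and 16.2 normalized CPM in WT and 13.5, 11.8 and 16.9 in KO. KO replicates 1 and 2 lay below every WT library and KO replicate 3 within the WT range. The log2 fold change was -0.23, SE 0.13 (edgeR adjusted p = 0.381). Without KO replicate 2 it was -0.09 and without KO replicate 3 it was -0.41, and neither fit called it.

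U6, the polymerase III member, was at 40.2, 45.5 and 40.4 normalized CPM in WT and 37.6, 35.9 and 35.3 in KO. The groups did not overlap, though the gap between them was small. The log2 fold change was -0.21 with an SE of 0.06, short of the threshold (edgeR adjusted p = 0.0953). Its KO libraries spanned 1.06-fold, the narrowest range among the members in KO. Non-overlapping groups with KO lower were thus seen for U1, U2 and U6, which is 3 of 5 members, in a table where 13.4% of all rows had them.

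**Figure D1:**
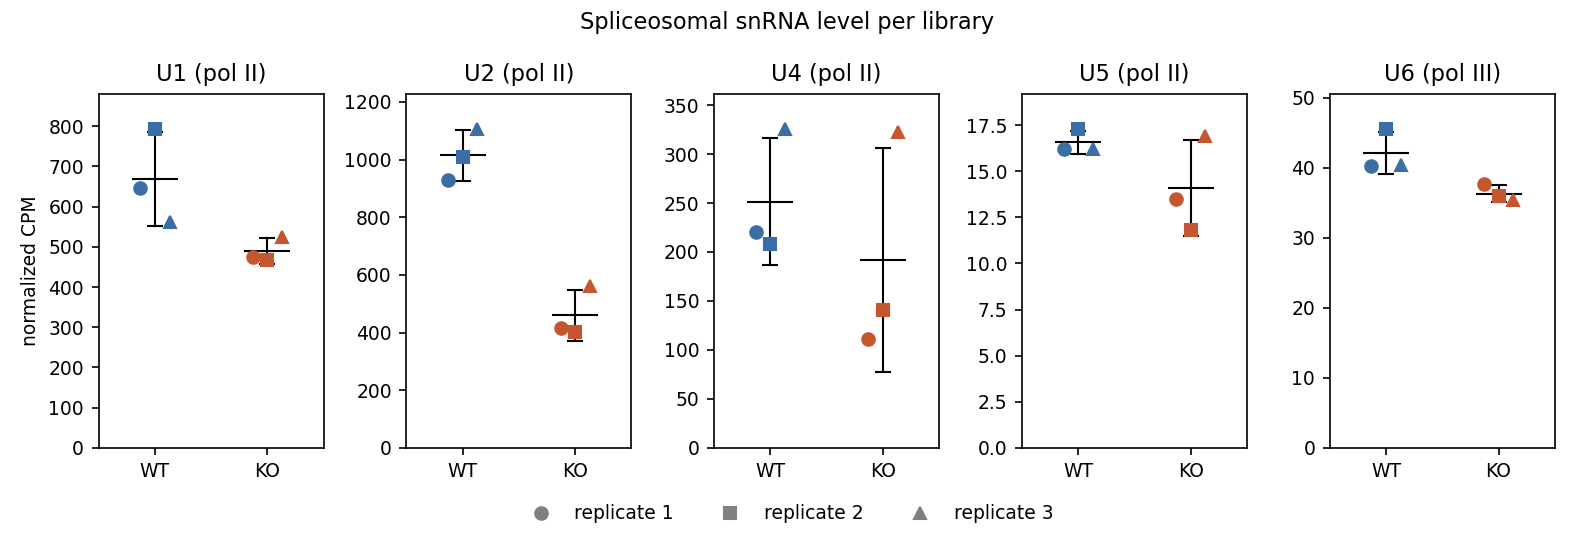
Level of each spliceosomal snRNA in normalized CPM (vertical axis, from 0, with its own scale in each panel) in the 3 WT and 3 KO libraries. Symbols are replicate numbers, and horizontal lines with bars are the mean and SD. U2 shows a wide gap between genotypes, from 930 in the lowest WT library to 562 in the highest KO library, whereas for U4 the replicates numbered 3 lie together at 326 and 323.

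All 5 members had fold changes below 0, with a median of -0.39 against 0.01 over all 1193 rows. That shared sign is relative to the TMM scale. When the 7SK count of each library was used as its size, the 5 values ran from -0.97 for U2 to -0.04 for U6, with U1 at -0.28, U4 at -0.21 and U5 at -0.07, and U2 still passed (edgeR adjusted p = 0.00726). That scale moved the median of all rows to 0.18. With total counts, rRNA included, the median of all rows was -0.36, U2 stood at -1.51 and no row passed (edgeR adjusted p = 0.998 for U2, with 3 rows at an unadjusted p under 0.05). With total counts outside rRNA, U2 stood at -1.09 and lost its call as well (edgeR adjusted p = 0.340), with 6 of all rows called. The rRNA share was 32.4%, 84.1% and 73.7% in WT replicates 1 to 3 and 84.8%, 52.9% and 77.0% in KO replicates 1 to 3, and U2 kept its call with that share as a covariate, at -1.19 (edgeR adjusted p = 0.00121).

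The 4 polymerase II members were then summed and set against U6. The sum fell from 1951 ± 119 normalized CPM (mean ± SD, n = 3) to 1154 ± 236, with libraries at 1814, 2028 and 2010 in WT and 1016, 1021 and 1427 in KO. Its log2 fold change was -0.76, SE 0.14 (edgeR adjusted p = 0.0205), in a fit that called 5.88% of rows. The call was lost without WT replicate 2 (-0.73, edgeR adjusted p = 0.0552), without WT replicate 3 (-0.73, adjusted p = 0.0960) and without KO replicate 2 (-0.68, adjusted p = 0.0898). It was also lost with 7SK counts as library size (-0.58, edgeR adjusted p = 0.131), with the replicate block (-0.77, adjusted p = 0.0546), with total counts (-1.11, adjusted p = 0.998) and with total counts outside rRNA (-0.70, adjusted p = 0.999). Most of the summed counts were U2 and U1, so the sum was also taken without U2, a choice made after seeing the data. U1, U4 and U5 together stood at 884, 1019 and 904 in WT and 599, 620 and 865 in KO, which is -0.43 in log2 (SE 0.14) and below the threshold for a call (edgeR adjusted p = 0.131).

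A ratio of 2 RNAs within a library does not depend on how the library is scaled. Differences between libraries in how well each RNA was recovered do not cancel in it, and they were not tested. The ratios are of counts and not of molecules. U6 made 2.22, 2.24 and 2.01 counts per 100 polymerase II snRNA counts in WT, and 3.70, 3.52 and 2.48 in KO. All KO libraries lay above all WT libraries, with KO replicate 3 nearest to them. The mean log2 ratio was 0.56 higher in KO, which is 1.48-fold (exact two-sided permutation p = 0.1, the smallest that 3 against 3 libraries allow). An edgeR fit of all rows with the polymerase II snRNA counts as library size gave a difference of 0.58, SE 0.19 (edgeR adjusted p = 0.00502), but 82.2% of all rows were called on that scale, so U6 shared its call with most rows.

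Without U2 in the denominator, U6 made 4.55, 4.47 and 4.47 counts per 100 counts of U1, U4 and U5 in WT and 6.28, 5.80 and 4.09 in KO. The genotypes overlapped, because KO replicate 3 fell below the WT libraries. The difference was 0.24 on the log2 scale (p = 0.4 in an exact two-sided permutation test of 3 against 3). The non-overlap between U6 and the polymerase II snRNAs was thus present with U2 in the sum and absent without it.

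Of the 10 pairs among the 5 RNAs, 3 had ratios that did not overlap between genotypes, and U2 was in each of them. These 3 share the U2 counts, so they are not separate from each other or from the lower U2 level above. The share of non-overlapping ratios over all rows was not computed. There were 1.44, 1.27 and 1.97 U2 counts per U1 count in WT and 0.877, 0.858 and 1.07 in KO, a log2 difference of -0.72 (0.607-fold). There were 1.74, 1.71 and 1.47 U5 counts per 100 U2 counts in WT and 3.24, 2.95 and 3.01 in KO, a log2 difference of 0.91 (1.87-fold). There were 4.32, 4.51 and 3.66 U6 counts per 100 U2 counts in WT and 9.03, 8.95 and 6.29 in KO, a log2 difference of 0.95 (1.93-fold). Each of these 3 had an exact two-sided permutation p = 0.1, and p = 0.333 after Benjamini-Hochberg adjustment over the 10 pairs, so none can be called by this test in a design of this size. Leaving out single libraries moved them between -0.85 and -0.54, between 0.83 and 0.95, and between 0.85 and 1.12.

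U2 against U4 did not separate fully: there were 23.6, 20.6 and 29.4 U4 counts per 100 U2 counts in WT and 26.7, 35.0 and 57.4 in KO (log2 difference 0.63, p = 0.2 in the exact two-sided permutation test). The pair U6 and U5, made by different polymerases, had 2.48, 2.63 and 2.49 U6 counts per U5 count in WT and 2.79, 3.04 and 2.09 in KO. The KO libraries lay on both sides of the WT libraries, and the log2 difference was 0.04 (p = 0.9 in the exact two-sided permutation test). U6 against U1 differed by 0.23 and U5 against U1 by 0.19, both with overlapping groups (exact two-sided permutation p = 0.2 and 0.4). Within the base-paired partners U6 and U4, the U6 counts per 100 U4 counts were 18.3, 21.9 and 12.4 in WT and 33.8, 25.5 and 10.96 in KO. Replicate 3 of each genotype had the lowest of these values, below both other libraries of its group. The genotypes overlapped in this ratio, with a log2 difference of 0.31 (p = 0.6 in the exact two-sided permutation test).

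**Figure D2:**
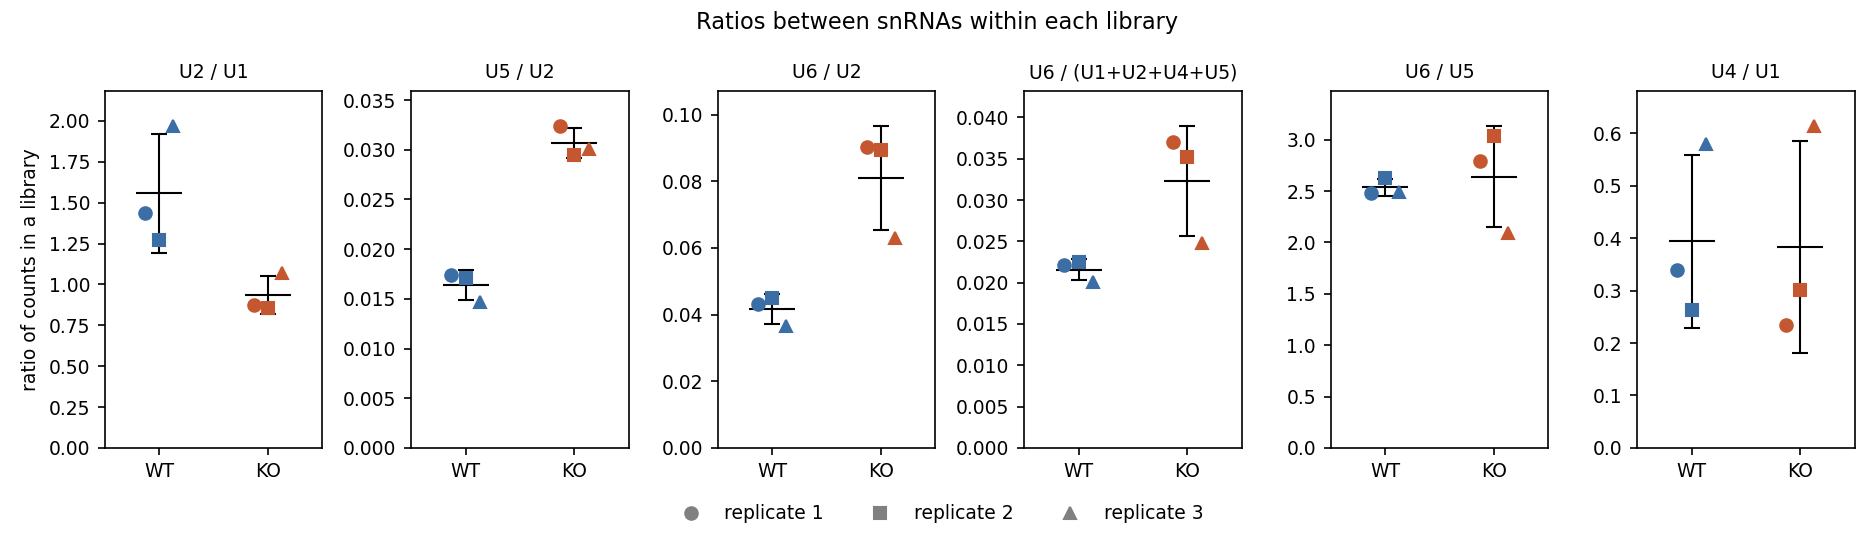
Ratios of counts between snRNAs in each library (vertical axis from 0, no unit) for WT and KO, with symbols for replicate numbers and lines with bars for mean and SD. The genotypes do not overlap in U2 / U1, at 1.27 or more in WT and 1.07 or less in KO, nor in U5 / U2, U6 / U2 and U6 against the polymerase II sum, whereas U6 / U5 and U4 / U1 overlap.

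Each member was also set against the sum of the other 4. U2 made 1.01, 0.948 and 1.17 counts per count of the others in WT and 0.654, 0.612 and 0.624 in KO, a log2 difference of -0.72 with no overlap (exact two-sided permutation p = 0.1, the smallest possible). In edgeR with the other members as library size U2 was called lower (-0.73, SE 0.26, adjusted p = 0.0318), on a scale where 24.8% of all rows were called. On the corresponding scales of U1, U4 and U5, which count U2 in the library size, 85.8%, 87.9% and 81.9% of all rows were called. The differences of these 3 RNAs were 0.50, 0.35 and 0.51 (edgeR adjusted p = 0.126, 0.0308 and 0.0265), so U1 was not called. A call on those scales is near the background.

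U2 made up 50.9% ± 2.72 (SD, n = 3) of the counts of the 5 rows in WT and 38.6% ± 0.803 in KO, a difference of -12.3 percentage points (exact two-sided permutation p = 0.1, the smallest possible). The KO spread of this share was narrow although the U2 level itself varied. U1 made up 33.5% ± 5.56 in WT and 41.7% ± 5.04 in KO, and U4 12.6% ± 2.99 and 15.3% ± 6.00, with overlap in both. U6 made up 2.11% ± 0.122 and 3.13% ± 0.623, and U5 took 0.833% ± 0.0409 and 1.19% ± 0.0839. Shares of one total are tied to each other, so a lower share of U2 raises the rest.

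**Figure D3:**
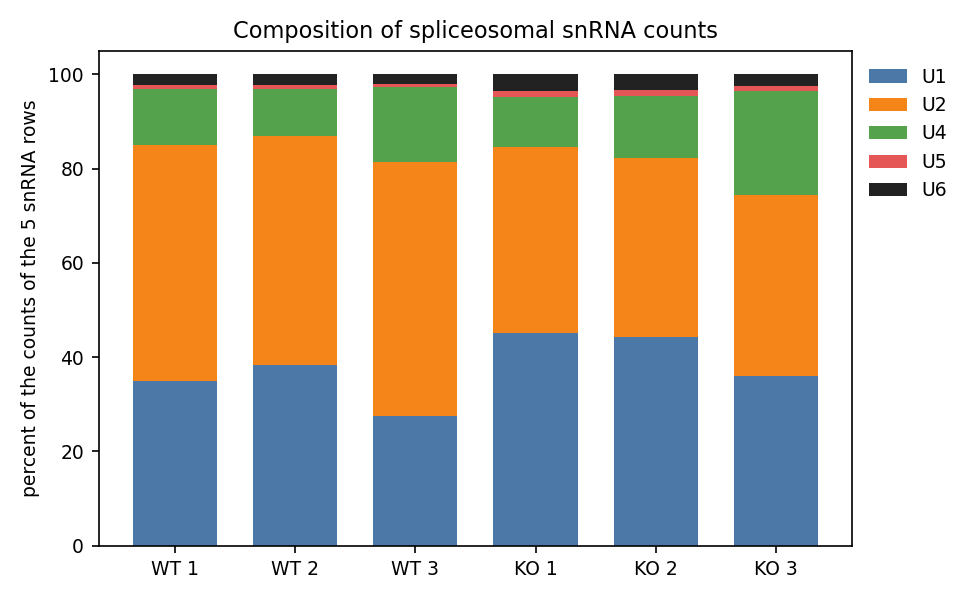
Percent of the counts of the 5 snRNA rows taken by each RNA (vertical axis) in each of the 6 libraries. The U2 segment is 50.9% on average in WT and 38.6% in KO, and the U4 segment is the largest of its group in replicate 3 of both genotypes.

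Levels of U1 and U2 were compared per length, with the lengths of the genes shown above, since the sources used here do not give the template behind each row. The other members are not given in this way. On this scale of normalized CPM per 100 nucleotides, U2 stood at 531 ± 46.1 and U1 at 407 ± 71.3 in WT (mean ± SD, n = 3), with U2 the higher in all 3 libraries. In KO, U2 stood at 241 ± 46.6 and U1 at 298 ± 19.4, with U2 the lower in all 3 libraries. The mean ± SD ranges of U2 and U1 overlapped in KO and lay close together in WT, and this order of the 2 RNAs was not tested.

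Other small RNAs were read in the same fit. Of 9 named RNAs from polymerase II transcripts, 6 had a row and 5 were tested. In a fit that called 3.6% of all rows lower, 2 fell, none rose, and the median log2 fold change was -0.54. U3 and U8, nucleolar RNAs that guide cleavage of pre-rRNA, were the rows that fell, at -1.70 and -1.36 (edgeR adjusted p = 0.000808 and 0.0446). None of U17, U13 and U14, also nucleolar, passed in that fit, at -0.50, -0.54 and -0.23 (edgeR adjusted p = 0.0619, 0.154 and 0.662). Falls called in this list numbered 0 with total counts, 1 with total counts outside rRNA and 3 with DESeq2. Those fits called 0, 6 and 77 of all rows in either direction. Falls in the list numbered 1 without WT replicate 1, 2 or 3 and without KO replicate 1 or 2, and 2 without KO replicate 3. The fits without single libraries called 22 to 69 of all rows in either direction. U7, which processes histone mRNA, held 4 to 18 counts per library and was not tested. The minor spliceosome RNAs U11, U12, U4atac and U6atac had no row under these names.

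Of 10 named polymerase III RNAs, 9 had a row and 7 were tested, and none passed in edgeR, with a median of -0.25. DESeq2 called 2 of the 7 lower and limma 1, in tests that called 77 and 63 of all rows. 7SK, which restrains the elongation factor P-TEFb, stood at 23728 ± 2474 normalized CPM in WT and 21075 ± 1663 in KO, with overlapping libraries, and its log2 fold change was -0.17 (edgeR adjusted p = 0.603). The signal recognition particle RNA 7SLRNA was at -0.34, BC1_Mm at -0.26 and 4.5SRNA at -0.17 (edgeR adjusted p = 0.278, 0.131 and 0.130). The Y RNAs HY1 and HY3 were at -0.64 and -0.25, and 5S rRNA, the 1 row above 0, at 0.44 with an SE of 0.42. The 5S row is of class rRNA, which the kit removes. Its lowest levels, 15.9 normalized CPM in WT replicate 1 and 18.5 in KO replicate 2, were in the library of each genotype with the lowest rRNA share. The cause was not tested. HY4 held 0 to 3 counts and HY5 none, and neither was tested. The tRNA class, also made by polymerase III, had 13 falls among 39 tested rows, in a fit that called 3.6% of all rows lower, and a median of -0.78. Those falls numbered 7 with 7SK as library size, 5 with the replicate block, 4 with total counts outside rRNA and 0 with total counts. Direction did not separate the 2 polymerases: 5 of 5 tested polymerase II rows and 6 of 7 polymerase III rows outside tRNA lay below 0, as they did with total counts or counts outside rRNA. With 7SK as library size, which fixes 7SK itself near 0, 5 of the other 6 of the latter did, with a median of -0.10.

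**Figure D4:**
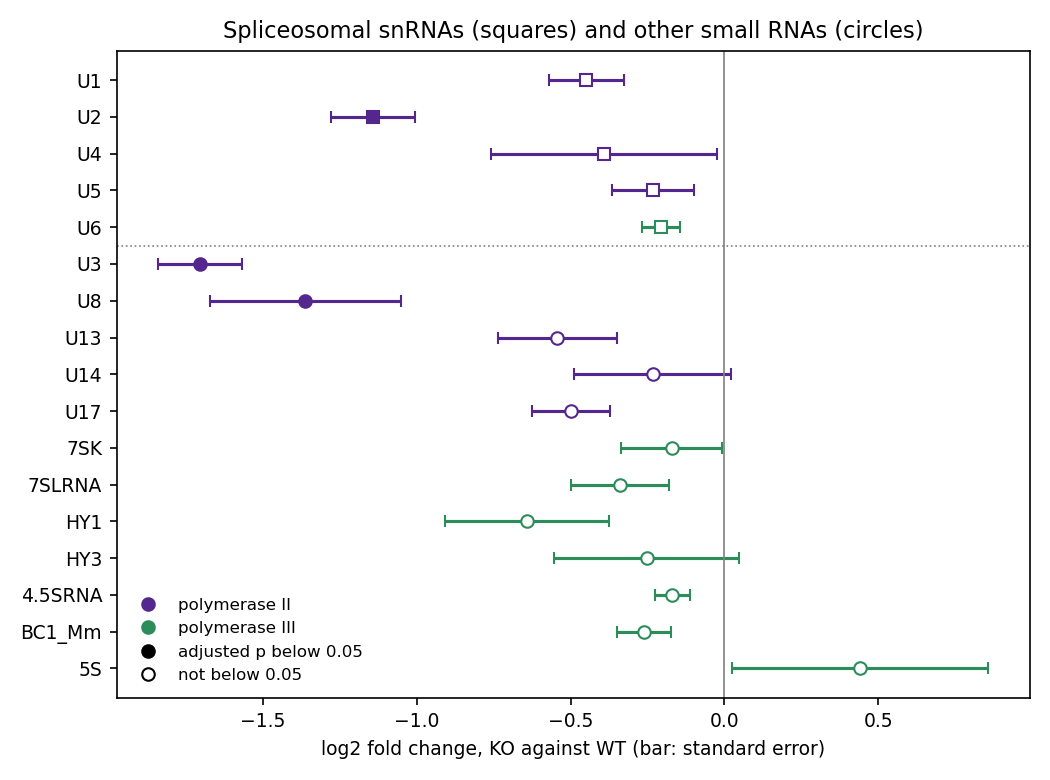
Log2 fold change of KO against WT (horizontal axis) with its standard error for the 5 spliceosomal snRNAs (squares) and 12 other tested small RNAs (circles), coloured by polymerase and filled where the edgeR adjusted p was below 0.05. U2, U3 and U8 are filled, and 5S is the 1 row to the right of 0.

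Among 930 tested rows outside the snRNA class with a mean of at least 50 counts, those most like the polymerase II sum over the 6 libraries were MER91A, a DNA transposon, and the tRNA rows tRNA-Lys-AAA and tRNA-His-CAY, with Pearson correlations of log2 level of 0.98, 0.97 and 0.96. Those most like U6 were 3 LTR elements, ERVB4_1B-I_MM, RLTR30D_RN and ERVL-B4-int, each at 0.98. The libraries share their scaling and genotype, and rows picked as the closest of 930 are a description with no test.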

How the data were processed

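The submitters' processing notes name Bowtie2, Trimmomatic and FastQC 0.11.5, and the builds mm10 and GRCm38. The files deposited by the authors give estimated counts for 1336 rows per library, called fractional in the file names but already whole. Not given in the sources used here are the repeat counter, its annotation, the use of strand and the split of reads that match several rows. Reads of similar rows may thus be shared.

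In edgeR 4.0.16 (R 4.3.3), filterByExpr kept 1193 rows and TMM set effective sizes. The quasi-likelihood test compared KO with WT, and p-values were adjusted over all rows by Benjamini-Hochberg at 0.05. Standard errors come from the test statistic. Ratios used exact permutation tests in SciPy 1.17.1. Alternatives used DESeq2 1.42.0 and limma 3.58.1. Copies were counted with blastn 2.17.0, promoter windows came from RefSeq (GRCm38.p6), and transcripts from GENCODE. Sequences of some members, and values computed from them, are not reported here. The procedure was tested on simulated data. Replicates of a genotype differed by far more than sampling noise. The members, comparison lists and tests were chosen with earlier results of these data known. Named rows were the members, fixed lists of other small RNAs by polymerase, and the 3 rows closest to the polymerase II sum and to U6.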

Additional observations from a re-analysis of the deposited data

How the results depend on the processing

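U2 kept its direction in all 18 alternatives (-1.51 to -0.97) and its call in 16, and was lost with total counts (-1.51) and with total counts outside rRNA (-1.09, edgeR adjusted p = 0.340). The polymerase II sum lost its call on those scales (-1.11 and -0.70), with 7SK as library size (-0.58), with the replicate block (-0.77), without WT replicate 1 and KO replicate 2 together (-0.72) and, chosen after seeing the data, without U2 (-0.43). Without single libraries it ran from -0.94 to -0.68. U1 passed with DESeq2 (-0.45). The members called numbered 0 with total counts and with total counts outside rRNA, and 2 with DESeq2. All rows called numbered 69 as reported, 0 with total counts, 6 with total counts outside rRNA, 34 with 7SK, 24 with the replicate block, 9 without WT replicate 1 and KO replicate 2 together and 22 to 69 without single libraries. With the other members as library size, edgeR called U2 (-0.73), U4 (0.35), U5 (0.51) and U6 (0.58, also against the polymerase II sum), on scales where 24.8%, 87.9%, 81.9% and 82.2% of all rows were called. Ratios that changed sign were U4 to U1 (-0.49 to 0.23 without single libraries: 0.23 without WT replicate 3, 0.21 without KO replicate 1, 0.03 without KO replicate 2), U5 to U4 (-0.018 to 0.59), U6 to U4 (-0.028 to 0.79), U6 to U5 (-0.071 to 0.20, and -0.086 without WT replicate 1 and KO replicate 2 together) and U4 to the other members (-0.073 to 0.56). The cause of these changes was not tested. Deviations from the group mean in WT and KO replicates 1, 2 and 3 correlated at -0.55, -0.50 and 0.04. Across numbers, WT replicate 1 with KO replicate 2 gave 0.62 and WT replicate 2 with KO replicate 1 gave 0.46. The remaining pairs lay between -0.18 and 0.13. The replicate block thus joined libraries that were not alike, and the labels tie no number to a batch or litter, so no pairing was assumed. U5, with 110 to 390 counts, is the member most limited by depth.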
